A study of Homo sapiens with 12 samples.

Results

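The 7 chemokine receptor genes CCR1, CCR2, CCR7, CXCR2, CXCR3, CXCR4 and CX3CR1 were followed through 12 RNA libraries of human acute myeloid leukemia cells. They were picked by symbol from the 60648 genes in each of the tables. CCR2 drew attention to the family because its level was lower in all 3 knockdowns, so its values in those contrasts are a description and carry no test. The other 6 receptors are the comparison.

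The libraries formed 6 groups of 2. MOLM13 and OCIAML5, established lines of acute myeloid leukemia, had received lentivirus with a hairpin, either a control or one that targets PSPC1, which encodes a protein that binds RNA in paraspeckles of the nucleus. In a separate experiment OCIAML5 alone received a control hairpin or one against SPI1, the gene of PU.1, a transcription factor of myeloid cells. Every group, controls included, therefore consisted of lentivirus-infected cells, which were selected by puromycin or by sorting for GFP, and the labels do not say which was used where. MOLM13 grew in RPMI 1640 with serum. OCIAML5 grew in alpha-MEM with serum and 10 ng/mL GM-CSF, a myeloid growth factor, so line and medium cannot be told apart. The hairpins are not identified, and separate cultures for the libraries of 1 group are not stated. The p-values therefore measure only how far these libraries vary, and that variation may be technical.

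Chemokine receptors are G protein-coupled receptors that steer leukocytes along gradients of small secreted proteins, the chemokines. Receptors named CCR bind CC chemokines, those named CXCR bind CXC chemokines, and CX3CR1 binds CX3CL1, also called fractalkine. On ligand binding they signal mainly through Gi proteins, and GRK kinases and arrestins then switch them off. In the myeloid lineage CCR2, the receptor for CCL2, brings monocytes out of the bone marrow, CXCR2, the receptor for CXCL8 and related chemokines, draws neutrophils into tissue, and CXCR4, the receptor for CXCL12, holds stem cells, neutrophils and leukemic blasts in the marrow.

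Libraries of the PSPC1 experiment held 15.4 to 22.8 M counts each, and those of the PU.1 experiment 26.3 to 39.7 M. Levels are given in CPM, a gene's counts divided by the scaled library size in M, with all 12 libraries on 1 scale. They are shares of the RNA in bulk samples, in which fewer cells of a type and less RNA per cell cannot be told apart. The targeted genes were lower in the libraries labelled as knockdowns: PSPC1 stood at 100 to 137 CPM in the controls of its experiment and at 18.8 to 28.6 CPM after its knockdown. SPI1 went from 197 and 220 CPM down to 45.1 and 46.4 CPM in the experiment that targeted it. PSPC1 itself was also lower after PU.1 knockdown, at 56.8 and 58.4 CPM against 102 and 109 CPM. All 10 myeloid markers had counts in all 6 groups, while MS4A1 of B cells and GP9 and PF4 of platelets were at 0 throughout. The 8 T and NK cell markers summed to between 23.4 and 25.6 CPM in the MOLM13 controls and to between 11.2 and 11.9 CPM after PSPC1 knockdown, most of it NKG7, with CD3E at 2 counts or fewer in each group. The sum was 1.47 to 5.52 CPM in OCIAML5, and the part of these markers in the receptor results was not tested.

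In the control libraries the lines differed in their receptors. MOLM13 controls carried more CCR2, CXCR3, CXCR4 and CX3CR1 than the OCIAML5 controls of the same experiment, and less CCR1 and CXCR2. This contrast played no part in choosing the genes, so all 7 entered the fit: CCR2 and CXCR4 passed as higher in MOLM13, CCR1 and CXCR2 as lower, and CCR7 did not pass. CXCR3 and CX3CR1 passed the count filter only through MOLM13 libraries and so had to differ, and their values are given with no p. Of the 16457 genes tested 60.6% passed an adjusted p of 0.05 in edgeR's quasi-likelihood test, 30% as higher and 30.7% as lower. Both MOLM13 libraries were above both OCIAML5 libraries for 39.5% of genes and below them for 39.2%. CCR2 stood at 125 and 116 CPM in MOLM13 and at 54.3 and 51.4 CPM in OCIAML5, a log2 difference of 1.19 ± 0.079 (SE; adjusted p = 1.8e-18). Both MOLM13 libraries lay far above both OCIAML5 libraries. CX3CR1, a receptor of nonclassical monocytes and microglia, stood at 17.2 and 17.5 CPM in MOLM13. In OCIAML5 it was at 0.385 and 0.384 CPM, which is 13 counts over both libraries (log2 difference 5.47 ± 0.32). CX3CR1 was thus a clearly measured gene in MOLM13 and a barely detected one in OCIAML5.

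CXCR4 stood at 27.8 and 29.3 CPM in MOLM13 and at 2.47 and 3.91 CPM in OCIAML5 (log2 difference 3.17 ± 0.19, adjusted p = 3.4e-20). CXCR3, best known from activated T and NK cells, stood at 4.84 and 4.66 CPM in MOLM13 and had no count in either OCIAML5 control. With a floor of 3 counts over the OCIAML5 group, its level was at least 53.7-fold higher in MOLM13. The opposite order held for CXCR2, at 10.1 and 8.48 CPM in MOLM13 and 33.4 and 35.9 CPM in OCIAML5 (log2 difference -1.89 ± 0.11, adjusted p = 1.8e-20). CCR1, a monocyte receptor for CCL3, CCL5 and related chemokines, stood at 33.1 and 31.4 CPM against 50.4 and 49.6 CPM (log2 difference -0.64 ± 0.091, adjusted p = 3e-08). CCR7, which guides dendritic cells and T cells to lymph nodes, was at 0.363 to 0.838 CPM in these 4 libraries, with a log2 difference of -0.01 (95% interval -1.44 to 1.42). At 24 and 21 counts per group, a difference within that interval was not detectable.

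**Figure D1:**
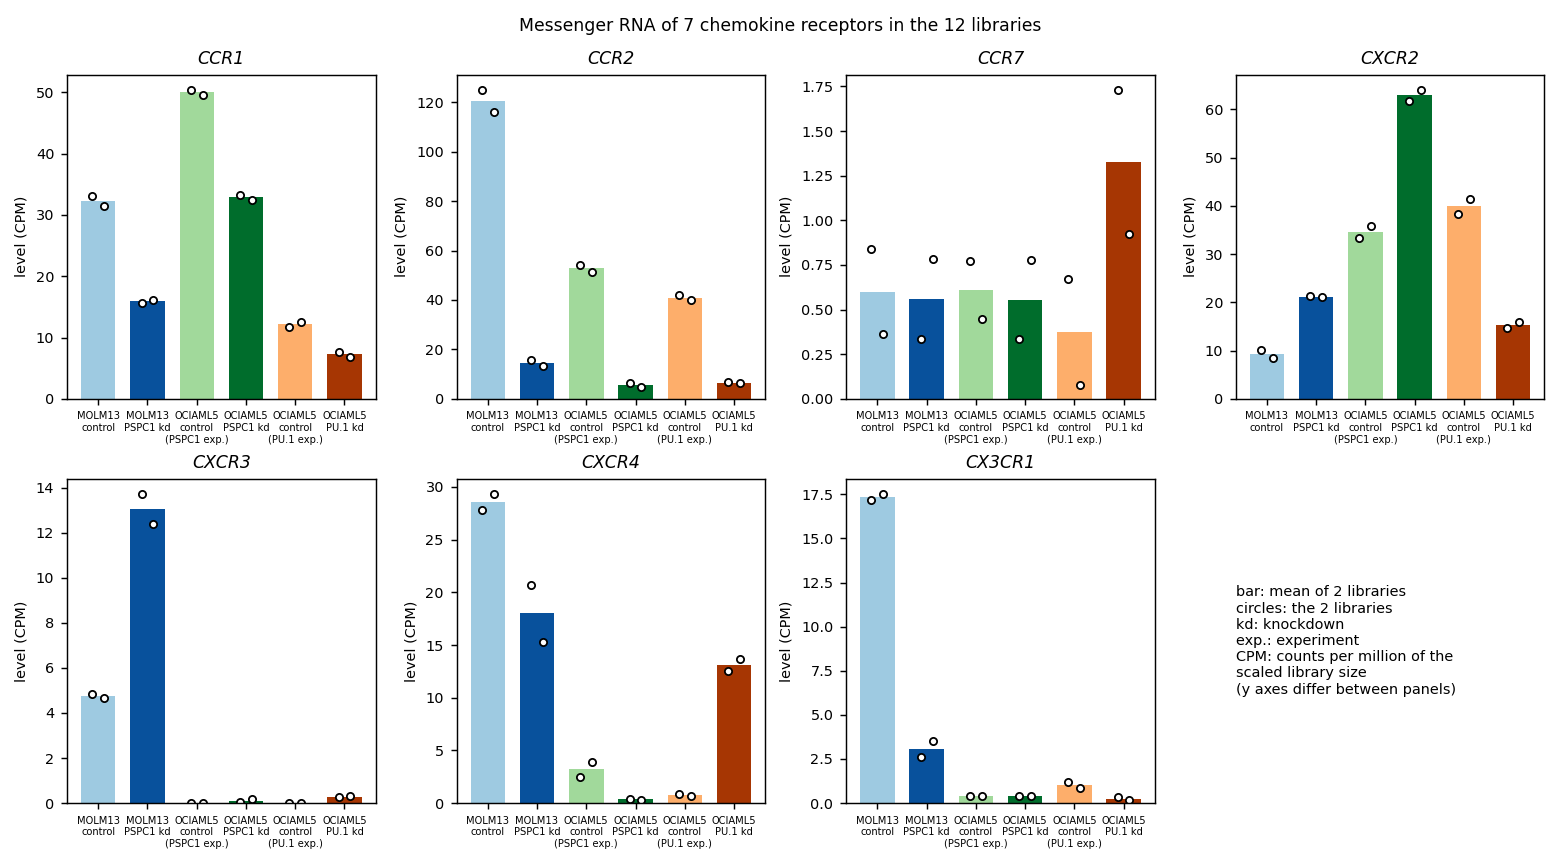
Level of each receptor in CPM (y axis, linear, from 0, with its own range in each panel) in the 6 groups (x axis); bars are means of 2 libraries and circles the libraries. CCR2 is lower in each knockdown than in its controls, CXCR2 rises in both PSPC1 knockdowns and falls in the PU.1 knockdown, and CXCR4 is highest in MOLM13 and, within OCIAML5, after PU.1 knockdown.

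Between the OCIAML5 controls of the separate experiments some receptors stood far apart, and experiment and table cannot be told apart. CCR1 averaged 50 CPM in the controls of the PSPC1 experiment and 12.1 CPM in those of the PU.1 experiment, a 4.12-fold difference. CXCR4 averaged 3.19 and 0.758 CPM, a 4.21-fold difference in the same direction. CX3CR1 went the other way, at 0.385 and 1.03 CPM. CCR2, at 52.8 and 41 CPM, and CXCR2, at 34.7 and 39.9 CPM, were closer. Each knockdown was therefore compared with the controls of its own experiment. Against the controls of the other experiment, an alternative chosen after the data were seen, the log2 fold change of CCR1 after PSPC1 knockdown in OCIAML5 was 1.45 (adjusted p = 1.1e-17), opposite to the value with its own controls given below. CXCR4 kept its signs there, but its log2 fold change was -1.06 after PSPC1 knockdown (adjusted p = 0.031) and 2.03 after PU.1 knockdown (adjusted p = 2.3e-11), against -3.10 and 4.10 with its own controls. CCR1 stood at -2.81 after PU.1 knockdown, against -0.76. CX3CR1 and CCR7 did not pass there for PU.1 knockdown (adjusted p = 0.42 and 0.15). Under that alternative CCR2 kept log2 fold changes of -2.81 after PSPC1 knockdown and -3.04 after PU.1 knockdown.

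CCR2 (ENSG00000121807.5; GRCh38 chromosome 3, 46353734 to 46360928, plus strand) was the receptor with the highest level per length in the MOLM13 controls. After PSPC1 knockdown in MOLM13 it stood at 15.8 and 13.2 CPM, against 125 and 116 CPM in the controls, a log2 fold change of -3.07 ± 0.095. In OCIAML5 it went from 54.3 and 51.4 CPM to 6.5 and 4.94 CPM with PSPC1 knockdown (-3.16 ± 0.11). In the PU.1 experiment it went from 41.9 and 40 CPM to 6.69 and 6.37 CPM (-2.67 ± 0.096). In linear terms these levels were 8.42-, 8.96- and 6.34-fold lower. The PSPC1 values differed between the lines by 0.09 on the log2 scale, and the difference took a negative sign when single knockdown libraries were left out (down to -0.07). Within OCIAML5 the PU.1 value was smaller in size than the PSPC1 value by 0.52, given as a description without a test. With the controls of the other experiment that order was reversed, at -3.04 for PU.1 and -2.81 for PSPC1.

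Some genes near CCR2 on chromosome 3, within a window of 200 kb on either side that was set after the values were seen, were followed as well. CCR1 is described with the receptors. CCR3, an eosinophil receptor, had 3 to 21 counts per group and was below the count filter. CCRL2, which binds chemerin and lacks chemokine signalling, stood at 1.54 and 2.12 CPM in MOLM13 and at 4.71 and 4.47 CPM after PSPC1 knockdown, a rise of 1.32 ± 0.42 (adjusted p = 0.0062). This call was lost without control replicate 1 (adjusted p = 0.085) or without knockdown replicate 1 (adjusted p = 0.052). CCRL2 had no count in OCIAML5, and LTF, RTP3 and LRRC2 had none in any library.

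Counted over the 6 receptors other than CCR2, PSPC1 knockdown in MOLM13 raised CXCR2 and CXCR3 and lowered CCR1, CXCR4 and CX3CR1. Of the 16457 genes tested 57% passed there, 27.6% higher and 29.5% lower, and both knockdown libraries lay above both controls for 38.8% of genes and below them for 36.9%. In OCIAML5 it raised CXCR2 and lowered CCR1 and CXCR4, while 56% of genes passed, 27.5% higher and 28.4% lower, with 37.7% and 38% of genes lying above or below without overlap. CXCR3 and CX3CR1 entered that test only through their MOLM13 libraries. PU.1 knockdown raised CXCR4 and lowered CCR1 and CXCR2. Of 16861 genes 60.4% passed, 29.6% higher and 30.9% lower, with 40.9% and 37.8% of genes lying above or below without overlap. CXCR3 passed the count filter there through its knockdown libraries alone, so it is left out of this count and given by its counts. CCR7, which was higher, and CX3CR1, which was lower, are left out as well. In their lower group only 1 library was over the cut-off of that filter.

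The effect of PSPC1 knockdown differed between the lines for CCR1, CXCR4 and CX3CR1. Differences of that kind passed for 30.5% of genes, 12.5% with the higher and 18% with the lower value in MOLM13. In OCIAML5 the knockdowns of PU.1 and PSPC1 differed in effect for CXCR2 and CXCR4 among 5 receptors tested, since CXCR3 was below the count filter of that fit. There 45.6% of 17159 genes passed, 22.8% with the higher and 22.9% with the lower value for PU.1. With so many genes passing, the number of receptors that passed is not a result about the family, and the values of each receptor follow.

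CCR1 (ENSG00000163823.3; chromosome 3, 46201709 to 46208396, minus strand, within the span of CCR3 on the other strand and sharing no exon base with it) fell in all 3 knockdowns, by less than CCR2. In MOLM13 it went from 33.1 and 31.4 CPM to 15.6 and 16.2 CPM after PSPC1 knockdown (log2 fold change -1.03 ± 0.1, adjusted p = 2.7e-12). In OCIAML5 it went from 50.4 and 49.6 CPM to 33.3 and 32.5 CPM (-0.58 ± 0.09, adjusted p = 2.2e-07). The libraries of each knockdown agreed closely and lay below both controls. The fall in MOLM13 exceeded that in OCIAML5 by 0.45 on the log2 scale (difference -0.45 ± 0.14, adjusted p = 0.009). After PU.1 knockdown CCR1 went from 11.8 and 12.5 CPM to 7.64 and 6.86 CPM (-0.76 ± 0.13, adjusted p = 3.3e-07). Its change did not pass as different between the PU.1 and PSPC1 knockdowns of OCIAML5 (difference -0.17, 95% interval -0.46 to 0.12, adjusted p = 0.37).

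CCR7 (ENSG00000126353.3; chromosome 17, 40553769 to 40565472, minus strand) stayed near 1 CPM or below almost everywhere. After PSPC1 knockdown it was at 0.337 and 0.785 CPM in MOLM13 and at 0.333 and 0.777 CPM in OCIAML5. These values overlap those of the controls, and the log2 fold changes were -0.13 ± 0.71 and -0.17 ± 0.7 (adjusted p = 0.91 and 0.87). In the PU.1 experiment CCR7 had 22 and 3 counts in the controls and 49 and 34 counts after knockdown. That rise was 1.85 ± 0.52 on the log2 scale, 0.93 without control replicate 2 and 1.33 without knockdown replicate 1. Only 1 control library, against both knockdown libraries, was over the cut-off of the count filter there, so no p is given.

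CXCR2 (ENSG00000180871.7; chromosome 2, 218125289 to 218137253, plus strand) moved in opposite directions in the knockdowns of PSPC1 and PU.1. It went from 10.1 and 8.48 CPM to 21.3 and 21 CPM after PSPC1 knockdown in MOLM13 (log2 fold change 1.16 ± 0.12, adjusted p = 5.3e-12). In OCIAML5 it went from 33.4 and 35.9 CPM to 61.8 and 64 CPM (0.88 ± 0.091, adjusted p = 6.8e-12). Both knockdown libraries lay well above both controls in each line. The size of the rise did not pass as different between the lines (difference 0.28, 95% interval -0.02 to 0.59, adjusted p = 0.16). After PU.1 knockdown CXCR2 went from 38.4 and 41.4 CPM to 14.7 and 16 CPM (-1.39 ± 0.083, adjusted p = 4.3e-24). Tested directly in the 8 OCIAML5 libraries, the PU.1 change minus the PSPC1 change was -2.26 ± 0.12 on the log2 scale (adjusted p = 3.3e-21). CXCR1, the close paralog of CXCR2 and a receptor for CXCL8, was below the count filter in each fit.

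CXCR3 (ENSG00000186810.7; chromosome X, 71615916 to 71618517, minus strand) rose in MOLM13 when PSPC1 was knocked down, going from 4.84 and 4.66 CPM to 13.7 and 12.4 CPM (log2 fold change 1.44 ± 0.24, adjusted p = 1.6e-06). In OCIAML5 it had 0 counts in both controls of the PSPC1 experiment and 1 and 3 counts after PSPC1 knockdown. That difference did not pass (adjusted p = 0.074). With so few counts, in a gene that entered that fit only through MOLM13 libraries, no call is made from it. In the PU.1 experiment it had 0 and 1 count in the controls and 8 and 11 counts after knockdown. The ratio of the summed counts, scaled for depth, was 21 with a 95% exact binomial interval of 3.34 to 872, which covers counting error only. It had entered the fit through the knockdown libraries, and its p was lost with DESeq2 and without control replicate 1, so no call is made from it. CXCR3 thus reached 0.3 CPM at most in OCIAML5, against 12.4 CPM or more in MOLM13 after PSPC1 knockdown.

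CXCR4 (ENSG00000121966.6; chromosome 2, 136114349 to 136118165, minus strand) fell in both PSPC1 knockdowns and rose in the PU.1 knockdown. In MOLM13 it went from 27.8 and 29.3 CPM to 20.7 and 15.3 CPM after PSPC1 knockdown (log2 fold change -0.68 ± 0.15, adjusted p = 0.00015). In OCIAML5 it went from 2.47 and 3.91 CPM to 0.416 and 0.277 CPM, or 10 and 5 counts (-3.10 ± 0.37, adjusted p = 4.7e-10). The fall was steeper in OCIAML5, by 2.42 ± 0.42 on the log2 scale (adjusted p = 7e-06). After PU.1 knockdown it went from 0.826 and 0.691 CPM, 27 counts each, to 12.5 and 13.7 CPM (4.10 ± 0.2, adjusted p = 8.2e-29). This brought CXCR4 in OCIAML5 to a level just below the 15.3 CPM of the lower MOLM13 PSPC1 knockdown library. Of the receptors tested, it showed the widest gap between the knockdowns of OCIAML5, 7.22 ± 0.43 on the log2 scale (adjusted p = 5.5e-19).

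CX3CR1 (ENSG00000168329.13; chromosome 3, 39263494 to 39281735, minus strand) fell with PSPC1 knockdown in MOLM13, where it was expressed. It went from 17.2 and 17.5 CPM to 2.63 and 3.5 CPM (log2 fold change -2.51 ± 0.23, adjusted p = 1.8e-13). In OCIAML5 it was at 0.375 and 0.388 CPM after PSPC1 knockdown, beside 0.385 and 0.384 CPM in the controls, with a log2 fold change of 0.01 (95% interval -1.13 to 1.15). The change in MOLM13 was 2.51 ± 0.63 lower than in OCIAML5 (difference -2.51, adjusted p = 0.0014), although the OCIAML5 value rests on 13 and 16 counts. After PU.1 knockdown CX3CR1 went from 40 and 33 counts to 9 and 6 counts (-2.13 ± 0.54). Only 1 knockdown library, against both controls, was over the cut-off of the count filter there, so no p is given. PU.1 and PSPC1 knockdown did not pass as different for this gene (-2.12 ± 0.95, adjusted p = 0.065).

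**Figure D2:**
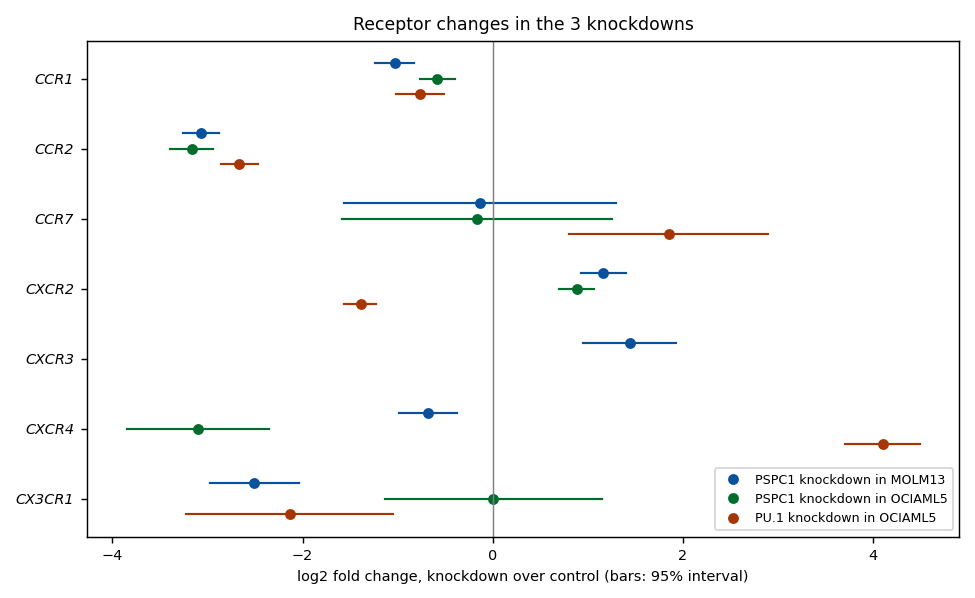
Log2 fold change of each receptor (y axis) between knockdown and control (x axis, log2 scale) in the 3 knockdowns, with 95% intervals as bars. The bars of CCR2 are a description and no test. CCR1 and CCR2 lie left of 0 in all 3 knockdowns, CXCR2 and CXCR4 change sides between the PSPC1 and PU.1 knockdowns, and CXCR3 is drawn for MOLM13 alone because OCIAML5 gave too few counts.

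PU.1 binds purine-rich DNA around a GGAA core. The bases before the start sites of the receptor genes were searched for GAGGAAG and the shorter GAGGAA, and for no other form. The 250 bases before the most upstream RefSeq start site (GRCh38.p14) are shown for CXCR4, which rose, and for CXCR2 and CX3CR1, which fell. All 3 are written 5′ to 3′ on the strand of the gene, and capitals mark a match to GAGGAAG, which on the other strand reads CTTCCTC.
CXCR4, chr2:136118150-136118399, minus strand: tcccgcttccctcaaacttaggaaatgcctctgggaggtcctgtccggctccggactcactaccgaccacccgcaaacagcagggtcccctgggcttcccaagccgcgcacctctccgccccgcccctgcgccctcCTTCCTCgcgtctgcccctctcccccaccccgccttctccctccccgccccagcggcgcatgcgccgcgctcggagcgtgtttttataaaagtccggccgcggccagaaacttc
CXCR2, chr2:218125778-218126027, plus strand: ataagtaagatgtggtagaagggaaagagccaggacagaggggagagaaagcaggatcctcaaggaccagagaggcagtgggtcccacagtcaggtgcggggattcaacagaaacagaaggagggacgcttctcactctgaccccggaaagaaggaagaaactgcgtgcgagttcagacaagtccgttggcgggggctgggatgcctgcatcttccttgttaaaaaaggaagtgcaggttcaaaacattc
CX3CR1, chr3:39281736-39281985, minus strand: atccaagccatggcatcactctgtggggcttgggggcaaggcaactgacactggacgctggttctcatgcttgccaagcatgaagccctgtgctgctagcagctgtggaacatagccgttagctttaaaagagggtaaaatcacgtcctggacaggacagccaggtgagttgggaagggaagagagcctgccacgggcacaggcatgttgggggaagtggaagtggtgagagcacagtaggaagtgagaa
CXCR4 held 1 match on the opposite strand, 114 bases before the start site, and CXCR2 and CX3CR1 held none in these windows. The GGAA core alone can be read in all 3 windows shown, so a window without GAGGAAG is not one without GGAA. Among the other members, CXCR3 held 2 matches, 230 and 28 bases before its start, and CCR1 and CCR2 held none. Of 35116 such RefSeq windows 11.2% held GAGGAAG on either strand, and 23.6% held the shorter GAGGAA, which every match to the longer motif includes. CXCR4 and CX3CR1 each had 3 windows in the table, and for each of them 1 of the further windows held GAGGAA. CCR7 had no entry. A match is a run of letters and not a measured binding site.

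These changes altered which receptor message was most abundant. Levels of different genes are compared here per length, in CPM per kb of exon. In MOLM13 controls the order was CCR2 at 32.4, CXCR4 at 12.8, CCR1 at 11.8, CX3CR1 at 4.75, CXCR2 at 2.88, CXCR3 at 2.55 and CCR7 at 0.24 CPM per kb, with no overlap between the libraries of neighbours in that order. After PSPC1 knockdown CXCR4 led at 8.1 CPM per kb, not separable from CXCR3 at 6.99, followed by CXCR2 at 6.55, CCR1 at 5.82 and CCR2 at 3.89. CCR2 went from 48% to 12% of the summed receptor level per length, and the sum went from 67.4 to 32.4 CPM per kb. CCR2 drew attention because it fell, so its smaller share and part of the lower sum are built into that choice. Larger shares of the other receptors follow in part from it as well.

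In OCIAML5 the leading receptors were CCR1 at 18.3, CCR2 at 14.2 and CXCR2 at 10.7 CPM per kb in the controls of the PSPC1 experiment. After PSPC1 knockdown CXCR2 led at 19.5, before CCR1 at 12 and CCR2 at 1.53 CPM per kb, and made up 58% of the sum. In the PU.1 experiment's controls CXCR2 at 12.4 and CCR2 at 11 CPM per kb came before CCR1 at 4.44. After PU.1 knockdown CXCR4 led at 5.88, before CXCR2 at 4.74, CCR1 at 2.66 and CCR2 at 1.75 CPM per kb. CXCR4 made up 37.3% of the summed level there, against 1.2% in its controls, and the sum went from 28.5 to 15.8 CPM per kb. CCR2 is part of these sums too, so the same limit holds for the shares and sums in OCIAML5.

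**Figure D3:**
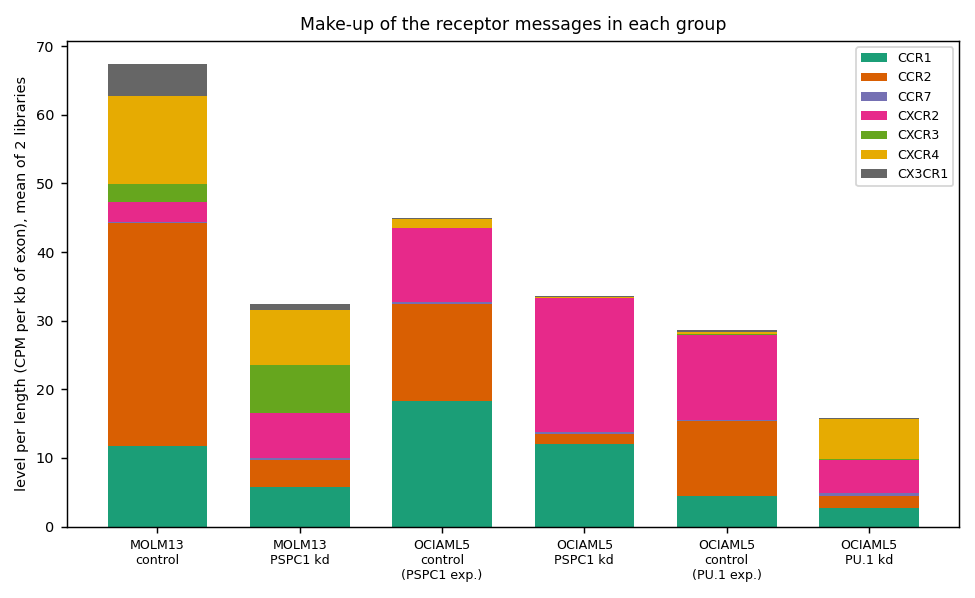
Stacked mean level per length (y axis, CPM per kb of exon, from 0) of the 7 receptors in the 6 groups (x axis, means of 2 libraries). The CCR2 segment, 48% of the MOLM13 control bar, is 12% after PSPC1 knockdown, CXCR2 is 58% of the OCIAML5 PSPC1 knockdown bar, and CXCR4 is 37.3% of the PU.1 knockdown bar. CCR2, which drew attention because it fell, is part of each bar, so lower bars and larger shares of other receptors are partly built in.

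The genes of the chemokines that these receptors bind had few or no counts for the most part. Of 47 chemokine ligand genes listed, 46 were in the tables, 13 had no count in any library and 14 were tested in at least 1 fit. CXCL12, the ligand of CXCR4, and CX3CL1, the ligand of CX3CR1, had 1 count each over all 12 libraries, and CCL19 and CCL21, the ligands of CCR7, had 3 and 2 counts. For CCR2 the ligand CCL2 was measured at low level and CCL7, CCL8 and CCL13 were at 0. CCL2 fell with PSPC1 knockdown in MOLM13, where it went from 1.68 and 1.7 CPM to 0.673 and 0.604 CPM (log2 fold change -1.41 ± 0.49, adjusted p = 0.013), a call that was lost without knockdown replicate 2 (adjusted p = 0.075). In OCIAML5 it rose after PSPC1 knockdown, from 1.37 and 0.897 CPM to 3.46 and 2.33 CPM (1.36 ± 0.42, adjusted p = 0.0052), lost without control replicate 2 (adjusted p = 0.068) or without knockdown replicate 1 (adjusted p = 0.14). After PU.1 knockdown it fell, from 1.71 and 2.28 CPM to 0.319 and 0.708 CPM (-1.93 ± 0.39, adjusted p = 1.4e-05). CCL2 therefore did not keep to the direction of its receptor CCR2 in OCIAML5 with PSPC1 knockdown.

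Ligands of CXCR2 rose when PU.1 was knocked down, while the receptor fell. CXCL8, or interleukin 8, went from 53.6 and 58.5 CPM to 325 and 323 CPM (log2 fold change 2.51 ± 0.048, adjusted p = 6.2e-52). CXCL1, CXCL2 and CXCL6 rose as well, by 1.49, 0.64 and 2.13 on the log2 scale, with adjusted p from 2.7e-21 to 3.5e-06. CXCL3 went from 16 counts to 141 (3.25 on the log2 scale). It passed the count filter through the knockdown libraries alone, so no p is given. All 5 had both knockdown libraries above both controls, and CXCL5, another CXCR2 ligand, was at 0. The OCIAML5 controls of the PSPC1 and PU.1 experiments stood apart for these genes too. They averaged 21 and 56 CPM for CXCL8, 2.12 and 9.43 CPM for CXCL1 and 1.69 and 11.1 CPM for CXCL2. CXCL6 averaged 0.0595 and 0.449 CPM, and CXCL3 went the other way, at 0.394 and 0.222 CPM. In OCIAML5 after PSPC1 knockdown, where CXCR2 rose, CXCL8 rose by less, from 21.3 and 20.7 CPM to 30.3 and 30.1 CPM (0.54 ± 0.13, adjusted p = 0.00056). CXCL2 fell there from 1.65 and 1.73 CPM to 0.5 and 0.721 CPM (-1.45 ± 0.61, adjusted p = 0.04), a call lost with DESeq2 (adjusted p = 0.096), in several other settings and without either library of each OCIAML5 group. In the MOLM13 line CXCL8 went down from 4.8 and 6.84 CPM to 2.56 and 3.93 CPM (-0.82 ± 0.21, adjusted p = 0.00088), while CXCR2 rose.

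**Figure D4:**
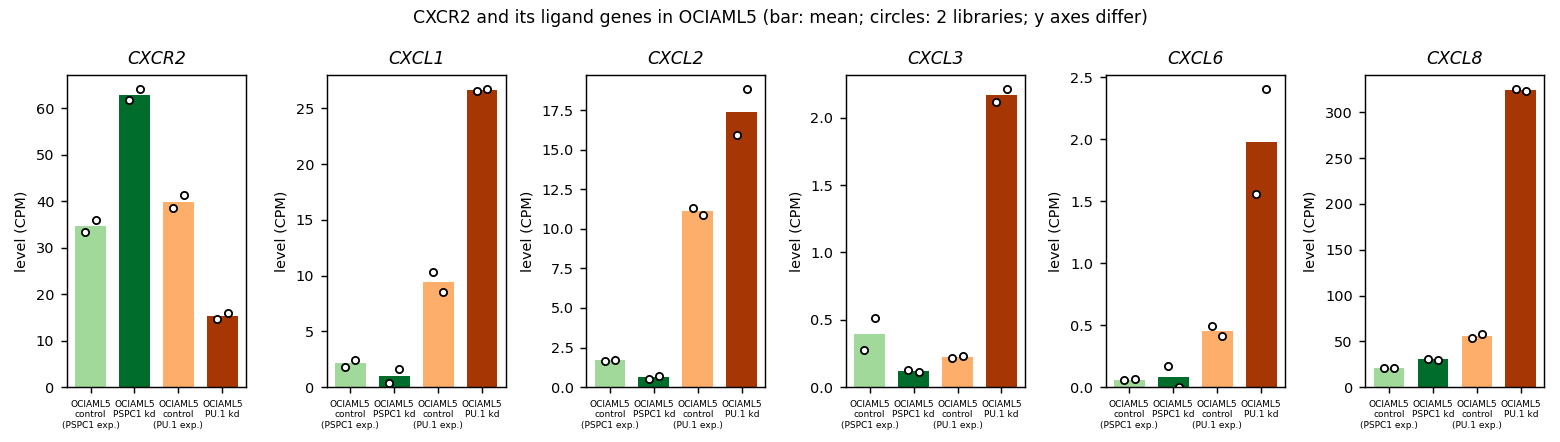
Levels in CPM (y axes from 0, each with its own range) of CXCR2 and of the genes of 5 of its ligands in the 4 OCIAML5 groups (x axis), with bars for means and circles for the 2 libraries. After PU.1 knockdown CXCR2 is lower than in its controls and all 5 ligand genes are higher, with CXCL8 at 325 and 323 CPM.

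Ligands of CXCR3 moved against their receptor in MOLM13. CXCL10, an interferon-induced chemokine, fell with PSPC1 knockdown and went from 12.8 and 9.87 CPM to 1.62 and 2.23 CPM (log2 fold change -2.56 ± 0.31, adjusted p = 4.7e-10), in the libraries where CXCR3 rose. CXCL11 had 32 counts in the controls and 1 after knockdown, a ratio of 26.5 with a 95% interval of 4.42 to 1080. CXCL9 had 1 count in all. In the whole ligand list PSPC1 knockdown in MOLM13 raised 1 and lowered 8 of 12 tested genes, where 27.6% of all genes passed as higher and 29.5% as lower. The median log2 fold change was -1.1, beside 0.006 for all genes. It was -0.73 over the 10 with more than 3 counts in either group, when a group under 3 counts is set to 3. The gene that rose was CXCL16, from 0.512 and 0.424 CPM to 0.943 and 1.33 CPM (1.25 ± 0.44, adjusted p = 0.015), lost without control replicate 2 (adjusted p = 0.063) or without knockdown replicate 2 (adjusted p = 0.16). CCL20, the ligand of CCR6, had 104 counts in the controls and 1 after knockdown (ratio 86, 95% interval 15.1 to 3430). CCL20 and CXCL11 passed the count filter through the MOLM13 controls alone, so no p is given, although both are among the 8 lowered.

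CCL5, which binds CCR1, was measured in all groups. It went from 45.8 and 50.8 CPM to 33.1 and 33 CPM after PSPC1 knockdown in MOLM13 and from 13.7 and 14.5 CPM to 7.74 and 6.55 CPM in OCIAML5 (log2 fold changes -0.56 ± 0.1 and -0.95 ± 0.14, adjusted p = 6.2e-06 and 4.2e-08). After PU.1 knockdown it rose, from 14.9 and 15.3 CPM to 26.6 and 22.9 CPM (0.69 ± 0.094, adjusted p = 1.7e-09). CCL23, a ligand of CCR1, had 45 counts in the controls and 3 after PU.1 knockdown, a ratio of 13.6 (95% interval 4.36 to 68.3). It passed the count filter through those controls alone, so no p is given. In OCIAML5 with PSPC1 knockdown 2 ligands rose, CCL2 and CXCL8, and 2 fell, CCL5 and CXCL2, of 12 tested, where 27.5% and 28.4% of all genes did. The median there was 0 as fitted and -0.35 over the 7 above the floor, beside 0.017 for all genes. With PU.1 knockdown 8 rose and 2 fell of 12, where 29.6% of all genes rose and 30.9% fell, with a median of 1.4 both as fitted and with the floor, beside 0.02. Those counts include genes that passed the count filter through 1 group alone, CXCL3 and CCL23 among them.

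Among 7 atypical receptors, which bind chemokines without Gi signalling, ACKR2, a scavenger of inflammatory CC chemokines, rose in both knockdowns of OCIAML5. It went from 0.66 and 0.513 CPM to 2.25 and 2.83 CPM after PSPC1 knockdown (log2 fold change 2.11 ± 0.59). With 12 and 8 counts in these controls and at most 4 in a MOLM13 library, it entered that fit mainly through its knockdown libraries. No p is therefore given. After PU.1 knockdown it went from 2.14 and 1.97 CPM to 5.66 and 4.98 CPM (1.35 ± 0.21, adjusted p = 8.6e-08).

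Receptors for other chemoattractants rose with PU.1 knockdown for 8 of 11 tested genes and fell for 1, where 29.6% of all genes rose and 30.9% fell. The median was 0.9, beside 0.02 for all genes. The 8 include FPR1 and CYSLTR2, which passed the count filter through their knockdown libraries alone and so carry no p. FPR1, the formyl peptide receptor of neutrophils, had 2 counts in the controls and 543 after knockdown (ratio 300, 95% interval 82.6 to 2480). CYSLTR2, a receptor for cysteinyl leukotrienes, had 0 and 295 counts, at least 109-fold higher with a floor of 3 counts over the control group. CYSLTR1, its relative, fell from 67.4 and 72.6 CPM to 4.78 and 6.13 CPM (log2 fold change -3.68 ± 0.091, adjusted p = 1.5e-45), and by less with PSPC1 knockdown in OCIAML5 (-0.67 ± 0.07, adjusted p = 9.8e-12). C3AR1, the receptor for complement fragment C3a, rose from 0.459 and 0.461 CPM to 5.8 and 5.34 CPM (3.57 ± 0.28, adjusted p = 3.7e-18). With PSPC1 knockdown it fell in MOLM13 (-0.69 ± 0.18, adjusted p = 0.00086) and rose in OCIAML5 (2.60 ± 0.61, adjusted p = 0.00025). The OCIAML5 value rests on 1 and 4 counts in the controls and 28 and 11 after knockdown, which limits the comparison of the lines.

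With PSPC1 knockdown this group went both ways, with 2 higher and 3 lower of 9 in MOLM13 (median -0.18) and 3 higher and 4 lower of 9 in OCIAML5 (median 0.016). Over all genes 57% and 56% passed, with medians of 0.006 and 0.017. S1PR3, a receptor for sphingosine 1-phosphate, behaved like CXCR4 in sign. It went from 23.9 and 20.9 CPM to 1.68 and 3.38 CPM in MOLM13 and from 4.51 and 6.28 CPM to 0.375 and 0.555 CPM in OCIAML5 with PSPC1 knockdown. After PU.1 knockdown it went from 10.1 and 11.5 CPM to 32.8 and 36.4 CPM. The log2 fold changes were -3.14 ± 0.23, -3.52 ± 0.34 and 1.66 ± 0.092 (adjusted p = 5.5e-17, 8.8e-13 and 1.2e-25).

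The machinery that carries receptor signals was measured for all 50 listed genes in the PSPC1 fit and 49 in the PU.1 fit. PSPC1 knockdown raised 22 and lowered 19 in MOLM13 (median -0.028) and raised 15 and lowered 26 in OCIAML5 (median -0.17), and PU.1 knockdown raised 12 and lowered 30 (median -0.36). Over all genes 27.6% rose and 29.5% fell in MOLM13, 27.5% and 28.4% in OCIAML5 and 29.6% and 30.9% with PU.1 knockdown, with medians of 0.006, 0.017 and 0.02. The Gi subunit GNAI2 fell in all 3, with log2 fold changes of -0.30 and -0.45 for PSPC1 in MOLM13 and OCIAML5 and -1.06 for PU.1 (adjusted p = 4.3e-08, 1.8e-13 and 1e-33). GNAI1 fell with PU.1 knockdown, going from 63.1 and 61.5 CPM to 14.9 and 19.4 CPM (log2 fold change -1.86 ± 0.079, adjusted p = 5e-32). So did PIK3R5, the p101 adaptor of PI3-kinase gamma that receives G beta-gamma signals, from 145 and 143 CPM to 25.5 and 25.4 CPM (-2.52 ± 0.058, adjusted p = 4e-47). With PSPC1 knockdown PIK3R5 changed little, by 0.20 in MOLM13 and -0.37 in OCIAML5 (adjusted p = 0.019 and 3.7e-08). PIK3R6, an alternative adaptor, went from 83 counts to 14 with PU.1 knockdown (-2.42 ± 0.53). It entered that fit through its controls alone, so no p is given, although it is among the 30 lowered genes. PIK3R6 rose in both PSPC1 knockdowns (0.89 in MOLM13 and 0.92 in OCIAML5, adjusted p = 0.0028 and 0.0037). The MOLM13 call was lost without knockdown replicate 2 (adjusted p = 0.093).

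Regulators of G protein signalling, which shorten G protein signals, changed by gene. RGS16 went from 32 and 24.1 CPM in the MOLM13 controls to 2.29 and 2.17 CPM with PSPC1 knockdown (log2 fold change -3.67 ± 0.19, adjusted p = 2.4e-22), and it also fell in OCIAML5 (-0.90 ± 0.16, adjusted p = 2.7e-06). With PU.1 knockdown it rose, starting at 29.1 and 26.1 CPM and reaching 61.3 and 66.3 CPM (1.2 ± 0.069, adjusted p = 8e-25). RGS1 fell in both PSPC1 knockdowns (-1.69 in MOLM13 and -2.52 in OCIAML5, adjusted p = 3.1e-06 and 1.5e-05). It rose with PU.1 knockdown (1.5 ± 0.49, adjusted p = 0.0068), a call that DESeq2 did not make (adjusted p = 0.059) and that was lost without control replicate 1 (adjusted p = 0.087) or without knockdown replicate 1 (adjusted p = 0.064). RGS2 rose in all 3 knockdowns, by 1.16, 1.44 and 1.16 for PSPC1 in MOLM13, PSPC1 in OCIAML5 and PU.1 (adjusted p = 0.0026, 4.3e-05 and 3.1e-05). TIAM1, an activator of the GTPase Rac, fell in all 3, with values of -1.60, -1.80 and -1.75 in the same order (adjusted p = 7.4e-07, 1.4e-07 and 1.2e-15).

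JAK2, a kinase, rose with PSPC1 knockdown in the MOLM13 line, where it went from 38.5 and 37.5 CPM to 87.3 and 93 CPM (log2 fold change 1.23 ± 0.075, adjusted p = 7e-20). PLCB2, a phospholipase downstream of G beta-gamma, rose in all 3 knockdowns, by 0.38 in MOLM13, 0.64 in OCIAML5 and 0.69 with PU.1 (adjusted p = 1.9e-08, 2e-16 and 3.5e-22). DPP4, a protease that trims chemokines, went from 64 counts in the OCIAML5 controls to 2 after PSPC1 knockdown (ratio 39.8, 95% interval 10.6 to 336). It passed the count filter through those controls alone, so no p is given, although the count of lowered genes includes it. RHOH, a GTPase of blood cells, rose with PU.1 knockdown, starting at 4.34 and 3.99 CPM in its controls to 9.17 and 11.5 CPM (1.31 ± 0.15, adjusted p = 2e-11).

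For the 6 receptors that reached 5 CPM in some group, the genes with the most similar profile over the 12 libraries were sought among 11872 genes by Pearson r of log2 CPM. The libraries share line, experiment and knockdown, so these values only describe how alike the profiles are. CCR2 was most like TBC1D1, PRKDC and MRE11 (r = 0.988, 0.985 and 0.984), of which PRKDC and MRE11 act in DNA repair. CCR1 was most like PLEKHO1, STK10 and EP300 (0.966, 0.963 and 0.939). CXCR2 was most like FCER1A, a chain of the high-affinity IgE receptor, RNPEP and ZNF675 (0.973, 0.971 and 0.964). CXCR3 was most like CCDC144B, IFITM3, an interferon-induced gene, and BCL3 (0.99, 0.989 and 0.989). CXCR4 was most like GAB2, TMEM87B and TRAC (0.981, 0.977 and 0.973), and CX3CR1 was most like SIRPB1, TSTA3 and MAF1 (0.984, 0.98 and 0.976).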

How the data were processed

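Messenger RNA was sequenced in 12 libraries of MOLM13 and OCIAML5. GRCh38 and the tools HTSeq 2.0.2, STAR 2.7.10a, DESeq2 1.36.0 and Trim Galore 0.6.7 are named per the submitters' processing notes. The deposited files hold raw counts per gene, in 1 table for PSPC1 and 1 for PU.1. The sources used here give neither the annotation nor whether counting used strand. Tests were run with edgeR 4.0.16 under R 4.3.3 (filterByExpr, TMM scaling, quasi-likelihood F tests, Benjamini-Hochberg adjustment over all genes tested, threshold 0.05). Residual degrees of freedom were 4 for the 8 libraries of the PSPC1 table, 2 for the PU.1 table and 4 for the 8 OCIAML5 libraries joined to compare the knockdowns. The biological coefficient of variation was 4.1% to 4.7%. Replicate libraries varied 2.5 to 4.43 times as much as counting noise, as variances. Printed levels were scaled over all 12 libraries, and lengths and positions come from GENCODE 29. Promoter sequences are from RefSeq.

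The receptors and gene lists were chosen with earlier results of these data known. From each list the genes named were, per knockdown, up to 3 each way with the largest log2 fold change among those that passed, a mean of 1 CPM or more in 1 of the groups and no overlap between knockdown and control libraries. For likeness the 3 genes with the highest r were named. The neighbours of CCR2, the ligands of the 7 receptors and GNAI2 were named after their values were seen. Alternatives were RLE size factors, DESeq2 1.42.0, library size alone, a replicate block, no filter on low counts, a minimum of 1 CPM in 2 libraries, an adjusted p of 0.01, the 4 libraries compared alone and leaving out each library. The fits were tested on simulated data. Some results are not reported here. Plots were drawn with matplotlib 3.10.9 in Python 3.11.15.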

Additional observations from a re-analysis of the deposited data

Results flagged for a closer look

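The effect of PSPC1 knockdown differed between MOLM13 and OCIAML5 by a direct test for CCR1 (-0.45 on the log2 scale, adjusted p = 0.009), CXCR4 (2.42, adjusted p = 7e-06) and CX3CR1 (-2.51, adjusted p = 0.0014). For CXCR4 the larger fall was in OCIAML5, and for CCR1 and CX3CR1 it was in MOLM13. CX3CR1 passed the count filter of that fit only through MOLM13 libraries. Its OCIAML5 log2 fold change rests on 13 control and 16 knockdown counts (95% interval -1.13 to 1.15), which limits the comparison for this gene. In OCIAML5 the effects of PU.1 and PSPC1 knockdown differed by a direct test for CXCR2 (-2.26, adjusted p = 3.3e-21) and CXCR4 (7.22, adjusted p = 5.5e-19), both of which moved in opposite directions. Those 2 knockdowns were made in separate experiments, and each effect was taken against its own controls. The CXCR4 controls of these experiments averaged 3.19 and 0.758 CPM. With the controls of the other experiment the CXCR4 values were -1.06 for PSPC1 and 2.03 for PU.1, in place of -3.10 and 4.10, so they still differed in sign.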

How the results depend on the processing

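Samples that share a replicate number did not deviate together (correlations 0.029, -0.026 and -0.032), so no pairing by number was visible. The labels do not say whether such samples were grown or prepared together, and these correlations cannot settle it. With the replicate block the counts of receptors called kept within 1.5 times the main counts, the difference of CCR7 between the PU.1 and PSPC1 effects passed (2.32, adjusted p = 0.03, against 2.03 and 0.074), and CXCL2 in OCIAML5 with PSPC1 knockdown was lost (adjusted p = 0.056). With the controls of the other experiment, chosen after the data were seen, 3 receptors passed after PU.1 knockdown in place of 6. The 6 include CXCR3, which was below the count filter of the joined OCIAML5 fit used there and so was not tested. They also include CCR7 and CX3CR1, for which no p is given above. CCR7 (1.07, adjusted p = 0.15) and CX3CR1 (-0.72, adjusted p = 0.42) no longer passed there, and 3 values after PSPC1 knockdown in OCIAML5 changed sign: CCR1 (1.45), CCR7 (0.58) and CX3CR1 (-1.42). The cause was not tested. Leaving out 1 library moved CCR7 from -0.87 to 0.60 in MOLM13 and from -0.85 to 0.35 in OCIAML5 with PSPC1 knockdown, from -0.70 to 0.77 for the difference between the lines and from -0.75 to 0.45 between the control lines. It moved CX3CR1 in OCIAML5 from -0.0206 to 0.0298 and the difference of CCR2 between the lines from -0.0747 to 0.319. With library size alone as the scale, the median over genes moved by 0.152 (log2) for PU.1 knockdown, with 6583 higher and 3995 lower in place of 4983 and 5206. For PSPC1 knockdown in OCIAML5 it gave 5201 higher and 4183 lower in place of 4533 and 4681. The signs given for the receptors did not change under RLE size factors or library size alone. Genes with few counts, CCR7 in each group and CXCR3, CX3CR1 and CXCR4 in parts of OCIAML5, are limited by depth.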

Other observations

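MIF, a ligand of CXCR4 with a further receptor and usually an abundant transcript, had 70 counts over all 12 libraries and at most 0.777 CPM. The sources used here do not say how reads that overlap several genes were counted.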
